A study of Homo sapiens with 6 samples.

Results

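The Wnt pathway genes described here are 48 protein-coding genes among the 28563 genes analysed. They were chosen by name: every listed gene whose symbol begins with WNT or FZD and a number, which gave 15 Wnt ligands and 10 Frizzled receptors, and 23 further genes for co-receptors, secreted antagonists, ligand secretion, receptor removal, the destruction complex, β-catenin, Dishevelled proteins, their antagonists and TCF/LEF factors. SFRP1, which also belongs to this set of names, was not analysed here. The cells are labelled HepG2, an established human line that grew from a liver cancer. Polydatin (PD), a plant compound, was given in DMSO to 3 dishes for 24 h, and 3 dishes received DMSO alone. The labels give a PD dose of 336 µM, whereas the study's methods give a lower one. Dishes were assigned to the groups at random, so the p-values below measure the spread between dishes of a single experiment on this line.

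Wnt proteins are secreted lipid-modified ligands that bind a Frizzled receptor together with the co-receptor LRP5 or LRP6. In the absence of ligand, a destruction complex of AXIN, APC and the kinase GSK3 marks β-catenin for degradation, whereas Dishevelled, recruited by the bound receptors, blocks that complex. β-catenin then accumulates and acts with TCF/LEF factors on target genes. Several of these targets, such as AXIN2, DKK1, NKD1, RNF43 and ZNRF3, encode inhibitors of the pathway and form a negative feedback. In the liver the pathway is known for setting the enzyme content of hepatocytes around the central vein, and HepG2 is known to carry a deletion in CTNNB1, which FPKM summed over a whole gene cannot show.

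The authors deposited FPKM, in which a gene's fragments are scaled to its length and to the size of the library. Whole fragments were worked back from these values. The 3 DMSO libraries held 16763318 to 17274927 of them and the 3 PD libraries 16308476 to 18071632. Of 20 hepatocyte genes listed as markers, 11 were analysed and 2 reached 1 FPKM in any library. These were CPS1, a urea cycle enzyme with 222 to 228 FPKM in DMSO and 106 to 111 in PD, and RBP4, the carrier of retinol, with 0.323 to 0.479 and 1.06 to 1.73 FPKM. The liver transcription factor HNF4A stayed at or below 0.106 FPKM, so the name HepG2 is used only as the labels give it. The summed hepatocyte markers were 223 to 230.0 FPKM in DMSO and 108 to 113 in PD, almost all of it CPS1, and their part in the results below was not tested. Summed markers were 8.36 to 9.35 FPKM in DMSO and 8.56 to 9.49 in PD for fibroblasts, 0.314 to 0.364 and 0.433 to 0.451 for endothelial cells, and 0.548 to 0.846 and 0.629 to 0.770 for leukocytes. The epithelial markers, mainly KRT8 and KRT18, summed to 103 to 109 FPKM in DMSO and 126 to 132 in PD. The DMSO and PD means were 50.1 and 68.9 FPKM for KRT8, 46.5 and 47.7 for KRT18, and 7.75 and 12.0 for CLDN4. EPCAM, at 1.17 and 1.03 FPKM, and CDH1, at 0.127 and 0.0343 FPKM, had lower means in PD.

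PD-treated cells had lower levels of the most abundant Wnt ligands and higher levels of most Frizzled receptors than DMSO-treated cells. Of the most abundant receptors, however, FZD2 was lower in PD, and FZD6 and FZD10 overlapped between the groups. WNT10B, WNT5A and the antagonist DKK1 fell by over 2-fold on the scale of log2(FPKM + 1), and FZD9, FZD7 and FZD1 rose by over 2-fold on the same scale. Differential expression was tested with limma on the 14400 genes whose FPKM averaged 0.5 or more across all 6 libraries, which included 34 of the 48 members. Of these, 27 (79.4%) had an adjusted p of at most 0.05, 13 of them higher and 14 lower in PD, where 58.1% of all genes tested passed (31.9% higher and 26.2% lower). With a change of at least 2-fold added, 6 members (17.6%) were called, 3 in each direction, where 3.61% of all genes were called (2.04% higher and 1.57% lower). The median size of the log2 fold change was 0.404 over the 34 members and 0.266 over all genes tested. In 27 of the 34 members the ranges of the PD and the DMSO libraries did not overlap, which also held for 65.4% of all genes tested. The pseudocount of 1 holds back the fold change of genes with low FPKM, and WNT1, WNT11, FZD4 and AXIN2 reached the 0.5 FPKM minimum only through the group where they were higher. With limma voom on fragments, which has no such pseudocount, 30 of 39 members (76.9%) passed the same limit on the adjusted p, 16 higher and 14 lower, where 62.6% of all genes passed (34.3% higher and 28.3% lower). At 2-fold, voom called 14 of the 39 (35.9%), 9 higher and 5 lower, where it called 11.5% of all genes (6.73% higher and 4.81% lower). WNT4, WNT11 and NKD1 passed the voom minimum of 10 fragments in 3 libraries without having it in every DMSO library.

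**Figure D1:**
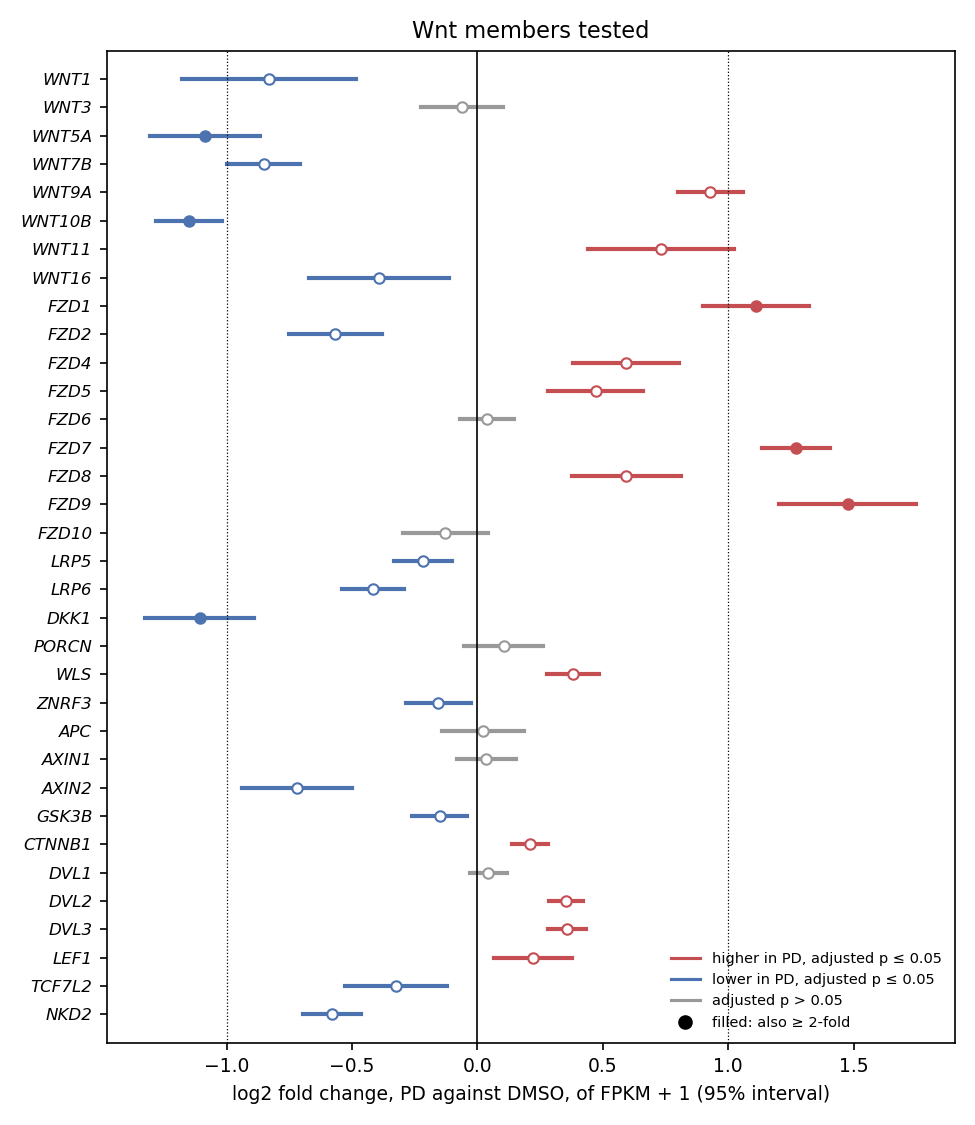
Log2 fold change of FPKM + 1 between PD and DMSO (horizontal axis) for the 34 members tested, with bars for the limma 95% interval, 3 libraries per group. Filled points are the 6 members called at 2-fold, of which WNT10B, WNT5A and DKK1 lie left of the dotted line at -1 and FZD1, FZD7 and FZD9 right of the line at 1, and grey marks the 7 members with an adjusted p over 0.05.

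Promoter sequences from RefSeq (GRCh38.p14), running from 250 bases before to 50 bases after the start that RefSeq gives each gene, matched 35 of the 48 members. Those of WNT5A, FZD1, FZD9 and DKK1 are printed because these members were called at 2-fold. WNT10B and FZD7 are given by name only. Capitals mark the letters that TCF/LEF factors are known to bind, searched on both strands as CTTTGAA or as its variants, which were CTTTGAT as well as CTTTGTA and also CTTTGTT. The windows, all of GRCh38.p14 and each written on the strand of its gene, are chr10:52314031-52314330, plus strand, for DKK1, chr3:55487257-55487556, minus strand, for WNT5A, chr7:91264183-91264482, plus strand, for FZD1, and chr7:73433528-73433827, plus strand, for FZD9.
DKK1: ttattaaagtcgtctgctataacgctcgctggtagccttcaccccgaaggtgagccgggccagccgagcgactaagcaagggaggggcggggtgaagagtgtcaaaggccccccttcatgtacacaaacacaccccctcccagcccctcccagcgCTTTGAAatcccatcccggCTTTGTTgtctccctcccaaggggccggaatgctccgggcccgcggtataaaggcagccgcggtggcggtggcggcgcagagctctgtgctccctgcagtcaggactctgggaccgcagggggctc
WNT5A: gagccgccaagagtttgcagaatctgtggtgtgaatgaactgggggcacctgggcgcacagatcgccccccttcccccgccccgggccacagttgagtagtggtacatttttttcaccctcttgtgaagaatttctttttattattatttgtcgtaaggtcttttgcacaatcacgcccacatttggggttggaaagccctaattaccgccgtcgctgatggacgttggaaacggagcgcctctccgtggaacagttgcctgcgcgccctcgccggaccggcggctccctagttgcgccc
FZD1: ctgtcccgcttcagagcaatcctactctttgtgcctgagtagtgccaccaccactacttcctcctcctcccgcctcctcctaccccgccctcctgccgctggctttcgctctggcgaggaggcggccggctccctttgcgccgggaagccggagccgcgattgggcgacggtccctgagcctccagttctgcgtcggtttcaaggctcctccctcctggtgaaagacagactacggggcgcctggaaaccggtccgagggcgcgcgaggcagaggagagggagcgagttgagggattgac
FZD9: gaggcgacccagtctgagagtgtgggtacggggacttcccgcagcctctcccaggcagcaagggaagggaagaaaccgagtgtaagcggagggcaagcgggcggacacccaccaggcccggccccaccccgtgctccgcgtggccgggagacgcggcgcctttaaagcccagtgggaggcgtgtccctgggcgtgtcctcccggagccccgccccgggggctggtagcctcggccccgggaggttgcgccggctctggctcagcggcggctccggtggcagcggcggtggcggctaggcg
In DKK1 the letters occurred 2 times without overlap, CTTTGAA from 95 and CTTTGTT from 76 bases before the start, both on the strand of the gene. The windows of WNT5A, FZD1 and FZD9 do not hold them. Of the 35 members with a window, 2 (5.7%), DKK1 and WNT3, held at least 1 such match, compared with 11.2% of the 22198 protein-coding promoters of the same length. The median GC content was 69.7% in the members' windows and 62.3% in all of them. A match of letters is a description of the sequence, and binding was not measured.

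Among the ligands, WNT10B, which signals through β-catenin in many tissues, was by far the most abundant. It lies on chromosome 12 of hg38 from 48965340 to 48971735 and had 166, 159 and 181 FPKM in the DMSO libraries and 77.0, 78.4 and 71.3 FPKM in the PD libraries. All PD values were below all DMSO values, and the PD mean was 44.7% of the DMSO mean. The means were 169 ± 11.3 FPKM in DMSO and 75.5 ± 3.74 FPKM in PD (SD, n = 3 each), for a log2 fold change of -1.15 (SE 0.06, adjusted p = 6.6e-06, limma). As FPKM are relative to gene length, ligand levels can be added, and WNT10B made up 82.2% ± 1.40 (SD, n = 3) of the summed FPKM of the 15 ligands in DMSO and 73.4% ± 0.825 in PD. The sum itself was 195 to 216 FPKM in DMSO and 98.0 to 105 FPKM in PD.

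WNT1, the founding mammalian member of the family, lies 6.6 kb from WNT10B on the opposite strand of chromosome 12, and both were lower in PD. WNT1 had 2.32, 1.42 and 1.35 FPKM in DMSO and 0.616, 0.424 and 0.455 FPKM in PD, from 54, 32 and 31 fragments and 15, 10 and 10 fragments. DMSO replicate 1 stood above the other two, and the groups did not overlap. The log2 fold change was -0.83 on the FPKM + 1 scale (SE 0.15, adjusted p = 0.0022, limma) and -1.70 with voom (adjusted p = 0.00013), so that it passed 2-fold in the latter only. WNT1 met the 0.5 FPKM minimum only through the DMSO libraries. Members lie within 100 kb of each other in 2 further places. WNT9A and WNT3A are 59.1 kb apart on chromosome 1, where WNT9A rose and WNT3A had 1 fragment in the 6 libraries together, and the pair WNT6 and WNT10A on chromosome 2, 6.6 kb apart, stayed under 10 fragments in every library.

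WNT5A, which is best known for signaling that does not need β-catenin, was second among the ligands in DMSO. It had 13.8, 14.0 and 10.9 FPKM in DMSO and 5.91, 5.39 and 5.28 FPKM in PD, and its log2 fold change was -1.09 (SE 0.09, adjusted p = 6.6e-05, limma). The PD mean was 42.8% of the DMSO mean, with no overlap of the groups. WNT7B, a β-catenin ligand of the lung and kidney, had 11.4, 11.2 and 12.7 FPKM in DMSO and 5.67, 6.36 and 6.18 FPKM in PD. The libraries of WNT5A and WNT7B overlapped in DMSO, at 12.9 ± 1.73 and 11.8 ± 0.788 FPKM, and also in PD, at 5.53 ± 0.333 and 6.07 ± 0.355 FPKM (SD, n = 3 each). WNT7B fell by 0.85 on the log2 scale of FPKM + 1 (SE 0.06, adjusted p = 3.1e-05, limma), short of 2-fold. WNT16, a ligand with a role in bone, had 1.08, 0.860 and 1.09 FPKM in DMSO and 0.390, 0.472 and 0.752 FPKM in PD. Its log2 fold change was -0.39 (adjusted p = 0.024, limma), and this call was lost when DMSO replicate 1, DMSO replicate 3, PD replicate 1 or PD replicate 2 was left out (adjusted p of 0.071, 0.072, 0.074 and 0.072).

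WNT9A moved the other way. It had 3.92, 3.56 and 3.64 FPKM in DMSO and 8.32, 7.99 and 7.58 FPKM in PD, which took it from below WNT3 to the place next to WNT10B among the ligands. Its log2 fold change was 0.93 (SE 0.06, adjusted p = 1.4e-05, limma), short of 2-fold on the FPKM + 1 scale, and it was 1.10 with voom, past 2-fold. The ratio of WNT9A to WNT10B in a library was 0.0200 to 0.0236 in DMSO and 0.102 to 0.108 in PD, with no overlap. WNT11, a ligand of cell movements in the embryo, was low in DMSO with 13, 8 and 11 fragments (0.313, 0.199 and 0.268 FPKM) and higher in PD with 59, 34 and 45 fragments (1.36, 0.808 and 1.15 FPKM). It passed the minimum only through the PD libraries, its exons overlap an antisense gene, and its log2 fold change was 0.73 on the FPKM + 1 scale (adjusted p = 0.0018, limma) and 2.03 with voom. WNT4, known from kidney and ovary development, was below the 0.5 FPKM minimum, with 5, 14 and 8 fragments in DMSO and 45, 51 and 48 in PD (0.117 ± 0.0615 and 0.614 ± 0.0558 FPKM, SD, n = 3 each). The groups of WNT4 did not overlap, and voom gave a log2 fold change of 2.44 with a 95% interval of 1.73 to 3.16 (adjusted p = 2.5e-06), while an antisense gene also overlaps its exons. WNT4 passed the voom minimum only through the PD libraries.

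For WNT3, a β-catenin ligand of the early embryo, no difference passed the test. It had 5.00, 4.24 and 4.61 FPKM in DMSO and 4.67, 4.34 and 4.12 FPKM in PD, overlapping groups, with a log2 fold change of -0.06 and a 95% interval of -0.22 to 0.10 (adjusted p = 0.48, limma). WNT2B had 39 to 65 fragments in every library and a voom log2 fold change of 0.10 (95% interval -0.38 to 0.57). WNT3A, WNT5B, WNT6, WNT8B and WNT10A had under 10 fragments in every library and met neither the 0.5 FPKM minimum nor that of voom. Among them the PD libraries lay above the DMSO libraries for WNT5B, with 2, 0 and 1 fragments in DMSO and 3, 7 and 5 in PD, and for WNT6, with 3, 1 and 0 in DMSO and 6, 4 and 4 in PD. In all, 2 of the 8 ligands tested by limma on FPKM rose, 5 fell and 1 did not pass the test, where 31.9% of all genes were higher and 26.2% lower. These counts include WNT11 and WNT1, which met the minimum only through the group where they were higher.

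**Figure D2:**
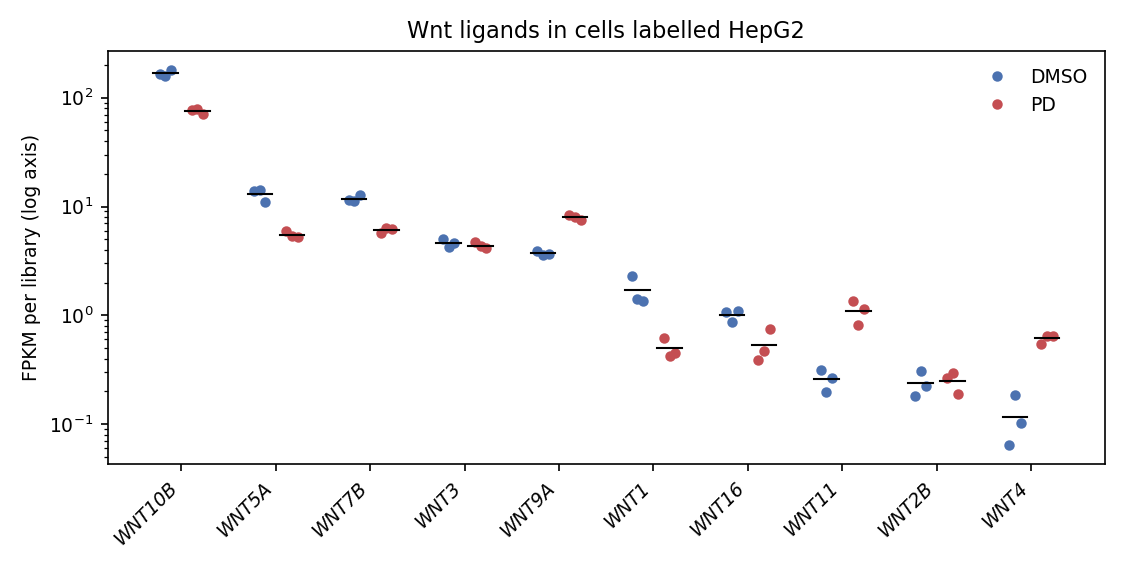
FPKM (log axis) of the 10 Wnt ligands with a mean of at least 0.2 FPKM in each of 3 DMSO and 3 PD libraries, points for libraries and lines for group means, ordered by the DMSO mean. WNT10B lies above 70 FPKM in every library and is lower in PD, as are WNT5A, WNT7B, WNT1 and WNT16, while WNT9A, WNT11 and WNT4 are higher in PD.

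Frizzled receptors span the membrane and bind Wnt through a cysteine-rich domain outside the cell. Of the 9 that passed the minimum, 6 rose, FZD2 fell, and FZD6 and FZD10 did not pass the test, beside shares of 31.9% higher and 26.2% lower over all genes. The 6 include FZD4, which met the minimum only through the PD libraries. The summed FPKM of the 10 receptors was 72.1 ± 1.75 (SD, n = 3) in DMSO and 84.1 ± 2.11 in PD, and FZD6, FZD2 and FZD10 were the most abundant in both groups. FZD6, often described as acting against β-catenin signaling, had 29.6, 29.2 and 28.8 FPKM in DMSO and 31.9, 28.4 and 29.9 FPKM in PD. The PD libraries lay on both sides of the DMSO libraries, with a log2 fold change of 0.04 and a 95% interval of -0.07 to 0.15 (adjusted p = 0.49, limma), and antisense exons overlap this gene. FZD10 had 14.2, 14.8 and 13.6 FPKM in DMSO and 11.7, 12.8 and 14.4 FPKM in PD, with a log2 fold change of -0.13 and an interval of -0.30 to 0.04 (adjusted p = 0.17, limma). PD replicate 3 decided that result, since without it the log2 fold change was -0.20 (adjusted p = 0.033).

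FZD1, FZD2 and FZD7 form a subfamily of close relatives that signal through β-catenin, and they did not move together. FZD7 had 2.70, 3.12 and 3.01 FPKM in DMSO and 8.62, 8.28 and 8.66 FPKM in PD, a log2 fold change of 1.27 (SE 0.06, adjusted p = 5.4e-06, limma). FZD1 had 1.90, 1.63 and 2.17 FPKM in DMSO and 5.68, 4.76 and 5.31 FPKM in PD, a log2 fold change of 1.11 (SE 0.09, adjusted p = 4.7e-05, limma). In both genes every PD library was above every DMSO library, and the PD means were 289% and 277% of the DMSO means. FZD2 had 17.8, 15.4 and 19.4 FPKM in DMSO and 11.9, 11.3 and 11.2 FPKM in PD, with all PD libraries below all DMSO libraries. Its log2 fold change was -0.57 (95% interval -0.75 to -0.38, adjusted p = 0.00066, limma). The ratio of FZD7 to FZD2 was 0.151, 0.203 and 0.156 in the DMSO libraries and 0.726, 0.730 and 0.775 in the PD libraries, and that of FZD1 to FZD2 was 0.106 to 0.112 in DMSO and 0.420 to 0.479 in PD. FZD2 nevertheless remained the more abundant of the subfamily in every library.

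FZD9, a receptor first described in brain, lies on chromosome 7 from 73433778 to 73436120 and had the largest log2 fold change among the members tested on the FPKM + 1 scale. It had 1.86, 2.58 and 2.80 FPKM in DMSO and 7.53, 8.78 and 9.02 FPKM in PD, with a log2 fold change of 1.48 (SE 0.12, adjusted p = 4.4e-05, limma). Its PD mean was 350.2% of the DMSO mean, and the groups were well apart. FZD7 and FZD9 thereby reached about the same level in PD, 8.52 ± 0.209 and 8.44 ± 0.804 FPKM (SD, n = 3 each). FZD5 and FZD8, a pair of close relatives, rose by 0.47 and 0.59 on the log2 scale of FPKM + 1 (adjusted p of 0.0019 and 0.0011, limma). FZD5 was at 1.70 to 2.21 FPKM in DMSO and 2.93 to 3.24 in PD, and FZD8, whose exons overlap other annotated genes, at 1.23 to 1.58 and 2.54 to 3.04 FPKM. FZD4, the receptor for the ligand Norrin in retinal vessels, had 41, 36 and 48 fragments in DMSO and 128, 131 and 126 in PD (0.321, 0.291 and 0.380 FPKM and 0.959, 1.01 and 1.05 FPKM). Its log2 fold change was 0.59 on the FPKM + 1 scale (adjusted p = 0.0010, limma) and 1.60 with voom, and exons of PRSS23 overlap it on the other strand. FZD3, a receptor for axon guidance, was below the minimum at 0.156 to 0.210 FPKM in DMSO and 0.511 to 0.654 in PD, or 36 to 50 and 115 to 158 fragments, and rose by 1.67 with voom (adjusted p = 9.1e-08). With voom 5 of the 10 receptors, FZD1, FZD3, FZD4, FZD7 and FZD9, were called at 2-fold, all as higher, where voom called 6.73% of all genes as higher.

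**Figure D3:**
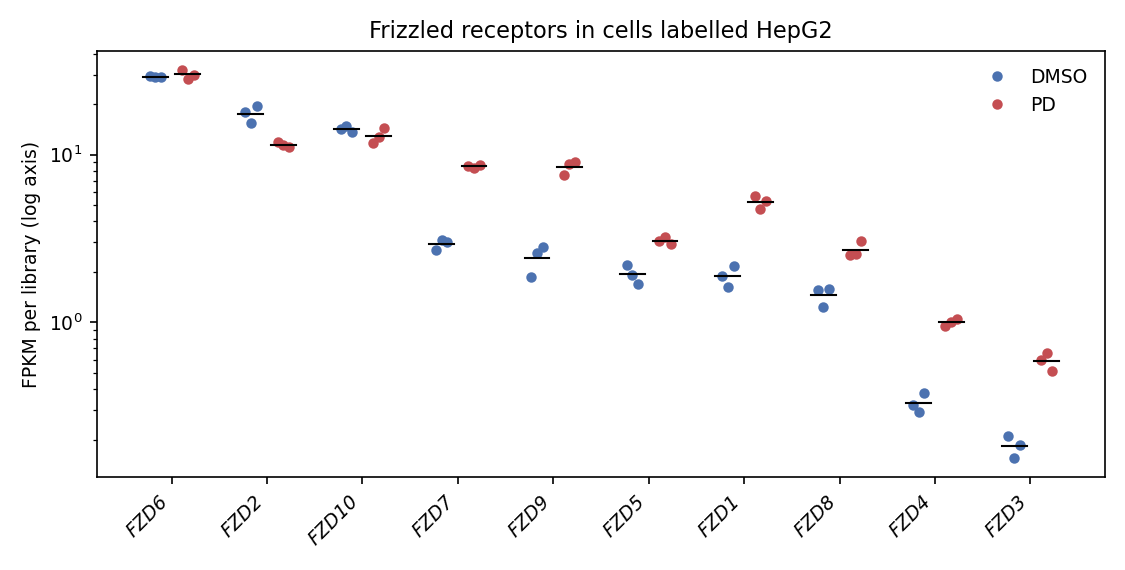
FPKM (log axis) of the 10 Frizzled receptors in each of 3 DMSO and 3 PD libraries, points for libraries and lines for group means, ordered by the DMSO mean. FZD6 and FZD10 overlap between groups, FZD2 is lower in PD, and the 7 other receptors have all PD libraries above all DMSO libraries.

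Both co-receptors were lower in PD by less than 2-fold. LRP6 had 11.3, 12.9 and 11.8 FPKM in DMSO and 8.79, 8.60 and 8.75 FPKM in PD, a log2 fold change of -0.42 (adjusted p = 0.00045, limma). LRP5 had 19.3, 19.7 and 21.0 FPKM in DMSO and 16.2, 17.4 and 17.6 FPKM in PD, a log2 fold change of -0.22 (adjusted p = 0.0071, limma). In each gene the groups did not overlap. WLS, the carrier that takes Wnt proteins to the cell surface, rose from 13.8, 13.7 and 15.0 FPKM to 18.4, 18.9 and 18.8 FPKM, a log2 fold change of 0.38 (adjusted p = 0.00029, limma), with exons of an antisense gene overlapping it. PORCN, the enzyme that attaches the lipid to Wnt proteins, had 3.84, 4.34 and 4.06 FPKM in DMSO and 4.78, 4.13 and 4.48 FPKM in PD, with overlapping groups and a log2 fold change of 0.10 (95% interval -0.05 to 0.26, adjusted p = 0.21, limma).

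Of the genes for secreted antagonists and feedback inhibitors, DKK1, AXIN2, NKD2 and, by a small margin, ZNRF3 fell on the FPKM + 1 scale. NKD1, below the 0.5 FPKM minimum, rose with voom. DKK1 binds LRP5 and LRP6 and keeps Wnt from engaging them. It had 6.06, 7.19 and 5.99 FPKM in DMSO and 2.21, 2.82 and 2.31 FPKM in PD, with a log2 fold change of -1.11 (SE 0.09, adjusted p = 5.7e-05, limma). The PD mean was 38.1% of the DMSO mean, and exons of PRKG1-AS1 overlap DKK1 on the opposite strand. AXIN2, a scaffold of the destruction complex and a widely used readout of β-catenin activity, lies on chromosome 17 from 65528563 to 65561648. It had 1.67, 1.31 and 1.40 FPKM in DMSO and 0.445, 0.546 and 0.493 FPKM in PD, from 151, 115 and 125 fragments and 42, 50 and 42 fragments. The groups did not overlap, and the PD mean was 33.8% of the DMSO mean. The log2 fold change was -0.72 (SE 0.09, adjusted p = 0.00048, limma), under 2-fold on the FPKM + 1 scale, and -1.55 with voom (adjusted p = 2.0e-07), and another annotated gene overlaps AXIN2 exons on the same strand. AXIN2 met the 0.5 FPKM minimum only through the DMSO libraries. Its relative AXIN1, which is not known as a target of the pathway, had 18.4, 19.9 and 20.8 FPKM in DMSO and 19.7, 20.0 and 20.8 FPKM in PD, with a log2 fold change of 0.04 (95% interval -0.08 to 0.15, adjusted p = 0.57, limma).

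NKD1 and NKD2 bind Dishevelled and dampen its signal, and they differed greatly in level. NKD2 had 84.1, 85.3 and 91.5 FPKM in DMSO and 58.2, 60.8 and 54.7 FPKM in PD, with no overlap and a log2 fold change of -0.58 (adjusted p = 6.2e-05, limma). NKD1 had 8, 2 and 5 fragments in DMSO and 16, 24 and 11 in PD, or at most 0.0786 FPKM. With voom its log2 fold change was 1.75 with an interval of 0.78 to 2.73 (adjusted p = 0.0026), against -0.59 for NKD2, but NKD1 passed the voom minimum only through the PD libraries. Another annotated gene overlaps NKD1 exons on the opposite strand, and NKD1 did not pass the test by limma without a filter on FPKM. RNF43 and ZNRF3 are ubiquitin ligases that remove Frizzled receptors from the membrane. RNF43 had 1 to 6 fragments in a library. ZNRF3 had 3.31, 3.26 and 3.09 FPKM in DMSO and 2.80, 2.85 and 2.71 FPKM in PD, a log2 fold change of -0.16 (adjusted p = 0.046, limma). This call was lost whichever of the 6 libraries was left out, with adjusted p of 0.052 to 0.13. DKK3 had 0 to 10 fragments in a library and FRZB had 1 fragment in the 6 libraries together, so neither could be compared.

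CTNNB1, which encodes β-catenin, was slightly higher in PD, with 28.0, 27.2 and 28.0 FPKM in DMSO and 32.6, 31.9 and 32.1 FPKM in PD. Its log2 fold change was 0.21 (SE 0.03, adjusted p = 0.00090, limma), with no overlap of the groups. Of the destruction complex, GSK3B had 24.4, 23.4 and 22.5 FPKM in DMSO and 21.9, 21.0 and 20.1 FPKM in PD, a log2 fold change of -0.15 (adjusted p = 0.026, limma). The GSK3B call was lost without DMSO replicate 1, DMSO replicate 2, PD replicate 2 or PD replicate 3 (adjusted p of 0.082, 0.061, 0.069 and 0.090). APC, the large scaffold lost in many colon cancers, had 3.58 to 3.94 FPKM in DMSO and 3.63 to 4.28 FPKM in PD, with a log2 fold change of 0.02 (95% interval -0.14 to 0.19, adjusted p = 0.81, limma). Among the Dishevelled genes, DVL2 rose from 31.8, 31.7 and 31.9 FPKM to 41.2, 40.5 and 41.0 FPKM and DVL3 from 25.6, 26.6 and 26.3 FPKM to a range of 33.3 to 34.2 FPKM. Their log2 fold changes were 0.35 and 0.36 (adjusted p of 4.6e-05 and 8.0e-05, limma). DVL1, the most abundant of them at 62.8 to 65.7 FPKM in DMSO and 65.2 to 67.3 in PD, had overlapping groups and a log2 fold change of 0.04 (95% interval -0.03 to 0.12, adjusted p = 0.27, limma).

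TCF/LEF factors bind DNA and recruit β-catenin to target genes. TCF7L2, the main one of the gut, had 2.72, 2.70 and 2.18 FPKM in DMSO and 1.94, 1.85 and 1.65 FPKM in PD, a log2 fold change of -0.33 (adjusted p = 0.015, limma). Without DMSO replicate 2 or PD replicate 3 the adjusted p was 0.051 for each. LEF1 had 1.43, 1.50 and 1.48 FPKM in DMSO and 1.95, 1.88 and 1.82 FPKM in PD, a log2 fold change of 0.22 (adjusted p = 0.022, limma), and an antisense gene overlaps its exons. That call was lost without DMSO replicate 1, PD replicate 1 or PD replicate 2 (adjusted p of 0.060, 0.065 and 0.060). TCF7, with 21 to 35 fragments in a library and a voom log2 fold change of -0.11 (95% interval -0.67 to 0.44), and TCF7L1, with 4 to 13 fragments, were low in every library.

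**Figure D4:**
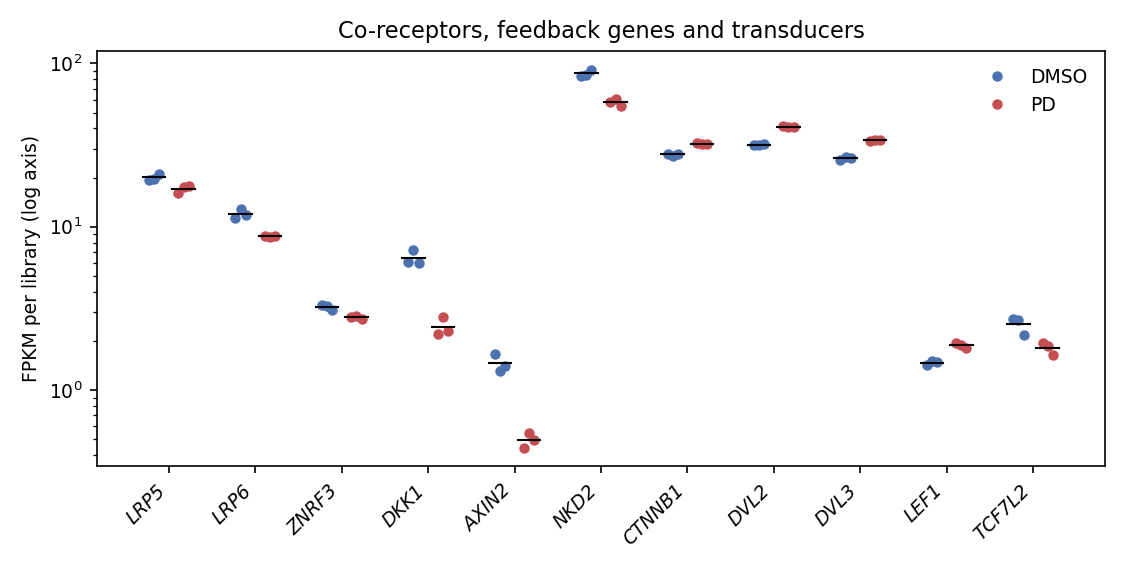
FPKM (log axis) of co-receptors, feedback genes, β-catenin, Dishevelled genes and TCF/LEF factors in each of 3 DMSO and 3 PD libraries, points for libraries and lines for group means. DKK1, AXIN2 and NKD2 are lower in PD with no overlap, and CTNNB1, DVL2, DVL3 and LEF1 are higher.

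Other genes of the pathway were counted from 5 lists of 98 names, of which 80 were analysed and 65 passed the minimum. None of the 65 was called at 2-fold by limma on log2(FPKM + 1), where 3.61% of all genes were called. The count at 2-fold was 3 without PD replicate 1 (CTNNBIP1, MYC and EPHB2), 2 without DMSO replicate 1 (CTNNBIP1 and MYC), and 1 without DMSO replicate 3 or PD replicate 2 (CTNNBIP1). A pseudocount of 0.1 called 4 of the 65 at 2-fold, where it called 698 of 14400 genes as higher and 550 as lower. Voom called 9 of 69, near the 11.5% of all genes. At an adjusted p of at most 0.05, 19 were higher and 22 lower, where 31.9% of all genes were higher and 26.2% lower. Of the 12 other receptors tested, 5 rose and 5 fell. Of the 6 secreted regulators 1 rose and 3 fell, of the 18 cytoplasmic proteins 3 rose and 5 fell, of the 16 nuclear cofactors 4 rose and 5 fell, and of the 13 target genes 6 rose and 4 fell. Over all genes 58.1% passed in either direction. The other receptors, target genes and secreted regulators lay above that share, the nuclear list near it and the cytoplasmic list below it. These differences were not tested. KREMEN1, ID2 and SOX9, counted here as risen, met the minimum only through the PD libraries. Their DMSO means were 0.435, 0.275 and 0.472 FPKM. Among the 9 genes called by voom, TNFRSF19 had at most 0.0117 FPKM in a DMSO library. The targets SP5, GLUL and BAMBI did not pass the test. Their log2 fold changes were -0.24, 0.01 and 0.07 (adjusted p of 0.19, 0.87 and 0.20, limma). The genes named next were picked after their values had been seen. NOTUM, a feedback enzyme that removes the lipid from Wnt proteins, had 8.78, 9.27 and 9.04 FPKM in DMSO and 5.43, 5.35 and 4.33 FPKM in PD, a log2 fold change of -0.74 (adjusted p = 0.00017, limma). MYC, a growth regulator and target in the gut, fell from 196, 235 and 219 FPKM to 123, 103 and 109 FPKM, a log2 fold change of -0.95 (adjusted p = 6.7e-05, limma). EPHB2, a receptor kinase that is also a target in the gut, went the other way, from 0.953, 1.02 and 0.976 FPKM to 2.80, 3.11 and 2.82 FPKM, a log2 fold change of 0.98 (adjusted p = 2.6e-05, limma). CTNNBIP1, a protein that keeps β-catenin from TCF factors, rose from 2.01, 1.29 and 1.93 FPKM to 3.88, 3.76 and 5.31 FPKM, a log2 fold change of 0.95 (adjusted p = 0.0010, limma).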

How the data were processed

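RNA from 3 PD-treated and 3 DMSO-treated dishes of cells labelled HepG2 was measured by poly(A) RNA-seq. The authors used HISAT2 to place read pairs on hg38 and HTSeq 0.6.0 for the gene counts (the version is also in the submitters' processing notes). They deposited FPKM in 1 table, and their strand setting is not given in the sources used here. All value columns were assigned to samples by title. Because the table holds FPKM, no count model for raw counts was the main test: limma 3.58.1 in R 4.3.3 was run on log2(FPKM + 1), PD against DMSO, without covariates, with an intensity-dependent prior variance, for genes averaging 0.5 FPKM or more. Benjamini-Hochberg adjustment covered all genes tested. Calls used an adjusted p of at most 0.05, and those at 2-fold also a log2 fold change of at least 1 in size.

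Fragments were worked back from FPKM as whole multiples of 1 fragment's worth (tolerance 1e-05), with exon lengths of GENCODE release 44 for 12770 genes and a common step in the values for 15793. They held 99.75% to 99.76% of each library's total and entered limma voom. Where only a step was known, a gene's fragments could be a whole multiple of those given. This applies to all members except FZD6, FZD10, LEF1 and TCF7L2. In a library, 13440 to 13841 genes stayed below 10 fragments, so counting error is large for them. Of the 48 members, 18 have exons that overlap another annotated gene, and their values are less certain. Tests were tried on simulated data before use. The alternatives were a pseudocount of 0.1, no filter, the replicate number as a block, 2 scalings, voom and leaving out each library. Values in every library were planned for members called at 2-fold by either test and the 2 most abundant of each role. They were also planned for AXIN2, NKD1, RNF43, ZNRF3, CTNNB1 and LEF1. FZD3, DVL1, RNF43 and DKK3 are given as ranges instead. Some others are also given in full. The members and lists were chosen with earlier results of these data known.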

Additional observations from a re-analysis of the deposited data

How the results depend on the processing

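The 3 members called higher and the 3 called lower at 2-fold became 6 and 5 with a pseudocount of 0.1 and 9 and 5 with voom on fragments, both of which hold back low genes less. The members tested were 34, 34 and 39. Over all genes the counts moved likewise, from 294 higher and 226 lower of 14400 to 698 and 550 of 14400 and to 1014 and 725 of 15077. Without each library in turn, these counts were 3 and 3, and at an adjusted p alone they were 12 to 13 higher and 11 to 12 lower. Over all genes, these fits gave 4117 to 4378 higher and 3254 to 3575 lower at an adjusted p alone, of 14358 to 14453 tested. Scaling by median-of-ratios or upper-quartile factors left 13 higher and 14 lower at an adjusted p alone. Of the 14399 genes tested there, 4362 were higher and 4031 lower with median-of-ratios factors, and 4166 and 4266 with upper-quartile factors. The directions that turned belonged to members that did not pass the test: with upper-quartile scaling the log2 fold change was -0.0055 for FZD6, -0.016 for APC, -0.0089 for AXIN1 and -0.0020 for DVL1. Without single libraries it ranged over -0.0026 to 0.079 for FZD6 (negative without PD replicate 1), -0.039 to 0.056 for APC (negative without PD replicate 1 or DMSO replicate 1) and -0.010 to 0.073 for AXIN1 (negative without DMSO replicate 1). The cause was not tested.

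The replicate numbers were not treated as pairs, because deviations of same-numbered libraries from their group means had correlations of -0.027, -0.005 and 0.09 over the genes tested. With the replicate number as a block, the counts at an adjusted p alone were 12 (higher) and 13 (lower), and 3 and 3 at 2-fold. Over all 14400 genes, this block fit gave 4414 higher and 3618 lower at an adjusted p alone, and 294 and 224 at 2-fold. ZNRF3 (adjusted p = 0.079) and LEF1 (0.056) lost their calls there, and no other member tested did. Without a filter on FPKM, 14 were higher and 12 lower: WNT16 (adjusted p = 0.054), ZNRF3 (0.084) and LEF1 (0.062) lost their calls, and WNT4 and FZD3, untested on this scale otherwise, passed. Depth limits the 7 members under 10 fragments in every library.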
